A study of Mus musculus with 2 samples.

Results

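The immediate early ERK response genes described here are 10 genes: Egr1, Fos, Fosb, Jun, Junb, Ier2, Ier3, Dusp1, Atf3 and Myc. They were chosen by name, as probe sets of the deposited table whose platform annotation gives exactly 1 gene symbol, and each was read by 1 probe set. They are 10 of 19938 genes with 1 symbol. Expression was measured on Affymetrix arrays in whole embryonic mouse lung at E13.5, in Etv4;5 knockout lung and in wild type lung. RNA of 3 samples per group was mixed in equal amounts, and each pool was hybridised to 1 array. The knockout is called CKO in one label and DKO in another, and neither a Cre driver, the deleted part of either gene, the strain nor the sex of the embryos is given in the sources used here. With 1 array per group there were no replicates, so no difference below could be set against a spread between samples, and no p-value was computed. The number of arrays limits the precision. Values are log2, and differences are knockout minus wild type.

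Immediate early genes are switched on within minutes of a growth factor signal, without new protein synthesis. Fibroblast growth factors act through RAS, RAF and MEK on the kinase ERK, which phosphorylates ternary complex factors such as ELK1 that sit with SRF on CArG boxes, while CREB family factors bind cAMP response elements (CRE) in many of the same promoters. The products are mostly transcription factors: EGR1 is a zinc finger protein, FOS and JUN proteins pair as the dimer AP-1, and MYC drives growth genes. In the branching lung, FGF10 from the mesenchyme signals through FGFR2 in the distal epithelium, where Etv4 and Etv5, factors of the ETS family, are induced by the pathway. Messenger RNAs of this class are short-lived and also rise with stress and handling of tissue.

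Proximal promoters are printed for 4 members. Jun (higher in knockout, by only 1.09-fold) and Ier3 (lower, by 1.35-fold on dim values) are set beside Dusp1 and Fos, which differed less or not at all. Each sequence is the 250 bases before the RefSeq start on the gene's strand in GRCm38.p6. Capitals mark motif matches found on either strand. The windows are Jun at chr4:95052223-95052472 (minus strand), Ier3 at chr17:35821463-35821712 (plus strand), Dusp1 at chr17:26508473-26508722 (minus strand) and Fos at chr12:85473640-85473889 (plus strand).
Jun: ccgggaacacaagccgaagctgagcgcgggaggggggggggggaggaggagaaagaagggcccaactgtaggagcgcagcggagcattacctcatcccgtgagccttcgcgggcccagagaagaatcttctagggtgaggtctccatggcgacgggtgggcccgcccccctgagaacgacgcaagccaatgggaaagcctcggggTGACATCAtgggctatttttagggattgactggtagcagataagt
Ier3: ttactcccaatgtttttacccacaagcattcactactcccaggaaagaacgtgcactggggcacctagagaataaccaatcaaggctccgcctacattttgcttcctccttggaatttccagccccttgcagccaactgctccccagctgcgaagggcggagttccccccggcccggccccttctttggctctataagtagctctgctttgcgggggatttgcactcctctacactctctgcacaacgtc
Dusp1: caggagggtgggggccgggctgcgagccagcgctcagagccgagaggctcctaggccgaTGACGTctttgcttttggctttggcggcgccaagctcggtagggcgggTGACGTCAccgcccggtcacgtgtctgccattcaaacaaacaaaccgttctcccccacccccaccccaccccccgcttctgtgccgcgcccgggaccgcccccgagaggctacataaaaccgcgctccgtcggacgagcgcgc
Fos: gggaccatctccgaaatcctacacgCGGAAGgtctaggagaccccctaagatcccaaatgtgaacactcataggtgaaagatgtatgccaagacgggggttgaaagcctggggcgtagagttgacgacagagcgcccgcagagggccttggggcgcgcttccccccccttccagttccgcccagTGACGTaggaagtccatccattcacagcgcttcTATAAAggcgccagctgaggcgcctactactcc

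The Jun window holds TGACATCA, a variant AP-1 element known from the Jun promoter, between bases -45 and -38, a match found in 2.93% of 32851 promoter windows of the same length. In Dusp1 the full CRE, TGACGTCA, lies at -143 to -136, and 1.55% of windows hold that motif. The CRE core TGACGT, which the full CRE contains, occurs once more in Dusp1 at -191 to -186 and in Fos at -66 to -61, and 6.47% of windows have a match. Fos also has the ETS core CGGAAG at -225 to -220 (13.6% of windows) and the TATA box TATAAA at -33 to -28 (12.4% of windows). None of the motifs searched was found in the Ier3 window. Of the other members, Atf3 has a CRE core at -8 to -3, Junb an ETS core at -22 to -17 and Fosb the EGR site GCGGGGGCG at -50 to -42 (2.57% of windows). The CArG box (1.47% of windows) and the AP-1 site TGANTCA (6.75%) were not found in any of the 7 member windows in the table, and the serum response element known from the Fos gene lies further upstream than the stretch searched. A match is a stretch of letters and was not tested as a binding site. Egr1, Ier2 and Myc are named only.

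**Figure D1:**
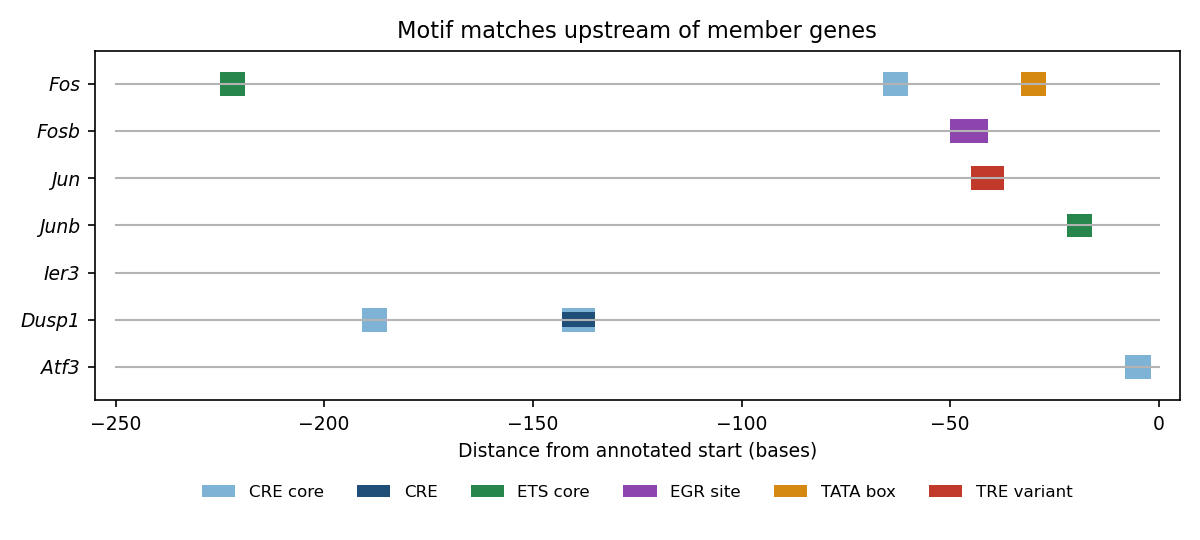
Motif matches in the 250 bases before the annotated start of 7 member genes; the horizontal axis is the distance from the start in bases, and coloured blocks are matches on either strand. CRE cores stand in Fos, Dusp1 and Atf3, ETS cores in Fos and Junb, and the Ier3 window has no match.

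Before the members, the pools themselves were compared. Etv4 stood at 6.96 in the knockout pool and 7.59 in the wild type pool, a difference of -0.63, and Etv5 at 11.28 in knockout and 11.51 in wild type (-0.23). Both were lower in the pool labelled knockout, but Etv4 lay below the array median in both pools, so its difference rests on dim values. Whether the probe sets lie in deleted sequence is not known here. Both arrays carried lung markers well above their medians (7.58 in knockout, 7.60 in wild type), among them Nkx2-1, which specifies lung epithelium, at 10.70 in knockout and 10.58 in wild type. The sex makeup of the pools differed: Xist, transcribed from the inactive X chromosome, was at 5.74 in knockout and 12.34 in wild type, while Uty, Eif2s3y and Kdm5d, all on the Y chromosome, had differences of 0.64, 0.53 and 0.53. Sex and genotype therefore cannot be told apart in these pools. In whole lung, a changed number of cells of a type and a changed RNA amount per cell cannot be told apart either.

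The 10 members went different ways and mostly by little. Egr1 was higher in the knockout pool and Ier3 lower, and these were the only members past 1.2-fold. Jun and Fosb were higher by about 1.09-fold, Ier2 was higher by 1.05-fold, Myc and Dusp1 were lower by about 1.01-fold, and Fos, Junb and Atf3 had identical deposited values on both arrays. A gene counted as measured when its brighter value reached the median of its array, which 5 members did (Egr1, Jun, Atf3, Dusp1 and Myc) and 5 did not (Fos, Fosb, Junb, Ier2 and Ier3). Of the measured members, 1 of 5 was at least 1.2-fold higher in knockout, against 1.39% of 11045 measured genes, and 0 of 5 were at least 1.2-fold lower, against 1.53%. Whatever their level, 4 of the 10 members were higher by any amount, 3 lower and 3 equal, against 33.4%, 33.2% and 33.5% of all 19938 genes. At 1.2-fold, 1 of 10 was higher and 1 lower, against 2.21% and 1.33% of all genes. No member differed by 2-fold, as 0.0301% of all genes did upward and 0.0251% downward. The median difference was 0.00 for the measured members and 0.00 for all measured genes.

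**Figure D2:**
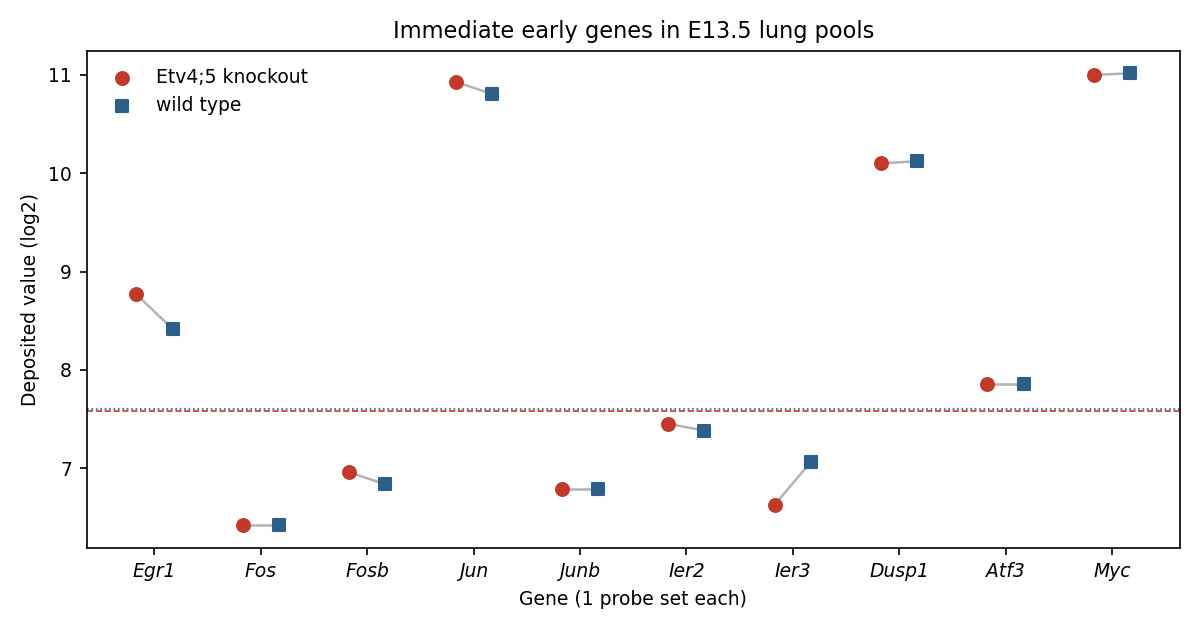
Deposited log2 value of each of the 10 genes in the knockout pool (red circles, left) and the wild type pool (blue squares, right), 1 array each, with no error bars because there were no replicates; the dashed red and dotted blue lines are the array medians (7.58 and 7.60). Egr1 was higher in knockout (8.77 against 8.42), Ier3 lower (6.63 against 7.06), and 5 genes lay below the medians on both arrays.

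Among the transcription factors of the 10 members, Egr1 had the largest difference. Its probe set 10454782 read 8.77 in the knockout pool and 8.42 in the wild type pool, a difference of 0.35 or 1.28-fold. Both values lay above the array medians, by 1.18 in knockout and 0.82 in wild type. Of the 11045 measured genes, 76 (0.688%) had a difference at least this high, Egr1 included.

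The other EGR factors, related zinc finger proteins that are also induced early, had positive differences in knockout too, though each was under 1.2-fold. Egr4 read 6.97 in knockout and 6.81 in wild type (0.17), Egr2 6.34 and 6.23 in the same order (0.11), and Egr3 8.22 and 8.20 (0.014). Egr2 and Egr4 were too dim to count as measured. All 4 EGR genes stayed higher under quantile and loess scaling, and under equal medians, which raises every difference by 0.017 and so could not turn them. Family medians lay between 0.12 and 0.16. Set beside this count of 4, 42.9% of dim genes and 25.7% of measured genes were higher in knockout, and Egr1 alone of the 4 passed 1.2-fold. The difference of Egr3 stayed below 0.04, the median gap between the differences of 2 probe sets of a gene, so its sign carries little weight. Nab1 and Nab2, which encode corepressors that bind EGR proteins, differed by -0.010 and 0.00017. Among the 7 measured EGR1 partners and targets, the largest differences were those of Pdgfa and Tgfb1. Pdgfa, a growth factor ligand, stood at 9.80 in knockout and 9.92 in wild type (-0.12), and Tgfb1 at 9.26 and 9.38 (-0.12). Of these 7 measured genes, 2 were higher by any amount, 4 lower and 1 equal, against 25.7%, 47% and 27.3% of measured genes. Their median was -0.010. In either direction 0 passed 1.2-fold, as 1.39% of measured genes did upward and 1.53% downward.

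As deposited, no FOS or JUN gene was lower in knockout, and of these genes only the dim Fosl1 passed 1.2-fold. Jun, which encodes a JUN protein of the AP-1 dimer, read 10.93 in knockout and 10.81 in wild type, a difference of 0.12 (1.09-fold). Fosb read 6.96 in knockout and 6.84 in wild type, a difference of 0.12 (1.09-fold), on a probe set below both array medians. Fos read 6.42 on both arrays, and Junb, a JUN protein with weaker activating function, 6.78 on both, also below the medians. Atf3, a stress-induced leucine zipper factor that pairs with JUN proteins, was at 7.86 on both, just above the medians. Among the further AP-1 subunits, Jund stood at 9.43 in knockout and 9.41 in wild type, Fosl2 was equal on both arrays at 8.40, and Fosl1 read 6.96 in knockout and 6.59 in wild type (0.38, not measured). Of the 7 FOS and JUN genes, 4 were higher and 3 equal as deposited. Among the higher ones Fosb and Fosl1 were dim, and 42.9% of dim genes and 25.7% of measured genes were higher in knockout. Under equal medians all 7 were higher, and under quantile and loess scaling 5 were higher and 2 lower, with the genes at equal values taking either sign. Of 9 measured AP-1 partners, 0 passed 1.2-fold, as 1.39% of measured genes did upward and 1.53% downward, and the median was 0.00. The largest differences among them were those of Atf2 (-0.07), a leucine zipper factor that pairs with JUN, and Maf (0.03).

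The members that are not EGR or AP-1 factors included the lower genes. Ier3, whose product IEX-1 is an ERK substrate that modulates cell survival, read 6.63 in knockout and 7.06 in wild type on probe set 10444890. The difference was -0.44, or 1.35-fold. Relative to the array medians the values were -0.96 in knockout and -0.54 in wild type, so Ier3 did not count as measured. Among the 8893 genes that did not, 1.09% were at least 1.2-fold lower and 3.22% at least 1.2-fold higher. Only 20 of these dim genes, Ier3 included, had a difference as low as that of Ier3. Ier2, which encodes a small nuclear protein, read 7.45 in knockout and 7.38 in wild type (0.07), also below the medians. Dusp1, a nuclear phosphatase that inactivates MAP kinases, stood at 10.10 in knockout and 10.12 in wild type, a difference of -0.021. Myc was at 11.00 in knockout and 11.02 in wild type, a difference of -0.016. Both lay well above the array medians, by 2.52 (Dusp1) and 3.42 (Myc) in knockout, so the near equality of the pools rests on bright values.

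The spread of differences varied with the level of the gene, and dim genes were more often higher in knockout and bright genes more often lower. Of genes not counted as measured, 42.9% were higher and 16% lower. Of measured genes, 25.7% were higher and 47% lower. Genes were therefore placed in 10 bins of equal size by mean level, a choice made after the values were seen. Of all genes 5.02% lie outside the central 95% of their bin by construction, and 3 of the 10 members did: Egr1, Jun and Ier3. For Jun, in the brightest bin, the range was -0.18 to 0.08, and 27 of 1994 genes had a higher difference than 0.12. Among all measured genes the Jun difference was less unusual, with 668 of 11045 (6.05%) at least as high. For Egr1 the range was -0.25 to 0.24, and 13 of 1994 genes were higher. For Ier3 the range was -0.20 to 0.28, and 10 of 1993 genes were lower. Fosb had nearly the same difference as Jun, but in its dim bin it lay well inside a range of -0.20 to 0.28. These 3 genes lay outside the range of their bin in each of the 6 settings in which bins were formed, the main one included. Differences were 0.35 to 0.37 for Egr1, 0.12 to 0.15 for Jun and -0.46 to -0.42 for Ier3. Equal medians moved genes and ranges alike, the floor changed neither for these 3 genes, and the mean over probe sets changed only the ranges. Quantile and loess scaling follow the level of a gene and so moved genes and ranges nearly together. For Jun the quantile difference was 0.15 and the upper limit 0.11, against 0.12 and 0.08 as deposited. The settings therefore could hardly have changed this outcome, and their agreement adds little. The ranges of the bins describe genes on 2 arrays and say nothing about variation between embryos.

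**Figure D3:**
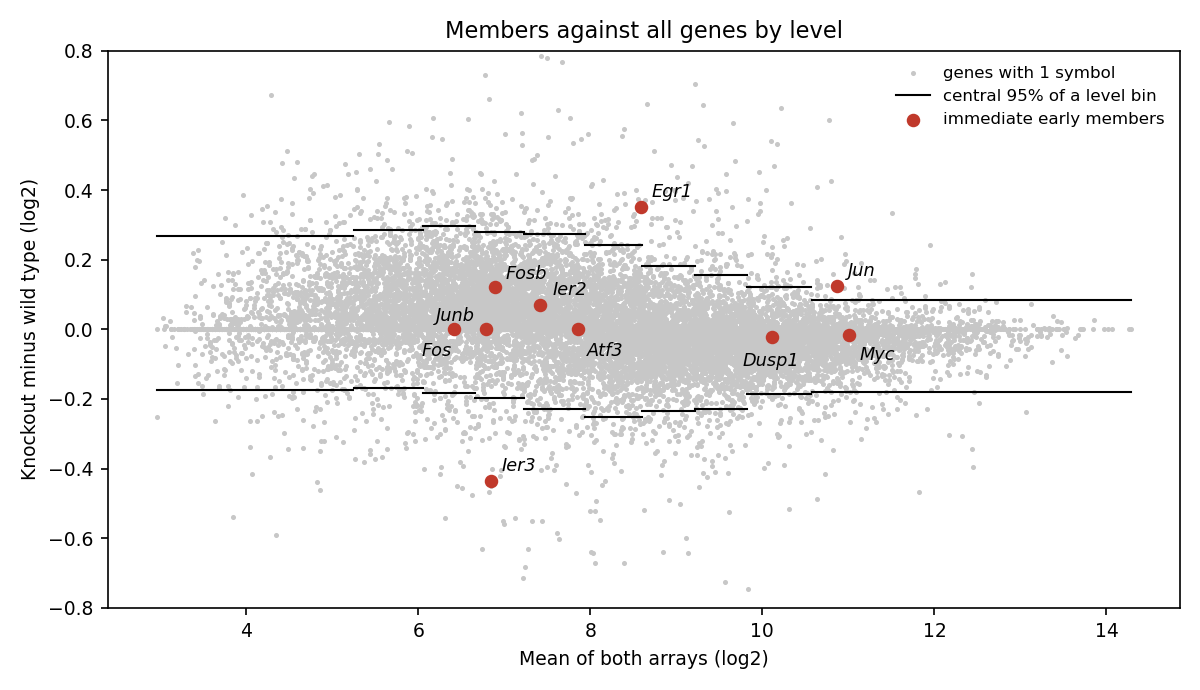
Knockout minus wild type difference (log2) against the mean of both arrays (log2) for all genes with 1 symbol (grey) and the 10 members (red); black steps bound the central 95% in each of 10 bins by level, and 20 genes beyond 0.8 are not drawn. Egr1 (0.35) and Jun (0.12) lie above and Ier3 (-0.44) below the range of their bins.

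Identical values were common on these arrays. Of all genes with 1 symbol 33.5% had exactly the same deposited value in both pools, against 3 of the 10 members. The share was 27.3% among measured genes, of which Atf3 is one, and 41.1% among the dimmer genes, which include Fos and Junb. No reason is given in the sources used here, so an exact 0 for Fos, Junb or Atf3 was taken as no difference in the deposited value only.

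In the wider immediate early class 0 of 34 measured genes passed 1.2-fold, close to the 1.39% of measured genes higher and 1.53% lower. All 43 further immediate early genes listed were matched and 34 counted as measured. Of these, 12 were higher by any amount, 12 lower and 10 equal, against 25.7%, 47% and 27.3% of measured genes, and the median was 0.00. These shares of measured genes, at 1.2-fold and by any amount, also apply to the counts of the other related lists. The largest positive difference was that of Btg2, an antiproliferative gene, at 9.60 in knockout and 9.42 in wild type (0.18), and the largest negative that of Per1, a circadian clock gene also induced acutely, at 8.68 and 8.84 (-0.16). Fosl1, which was too dim to count, exceeded both. The nuclear receptor genes Nr4a1 and Nr4a2, which respond early to many stimuli, differed by -0.05 and -0.10, and Nr4a3 was equal on both arrays. Zfp36, whose product destabilises inducible messenger RNAs, stood at 7.69 in knockout and 7.84 in wild type (-0.15).

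Genes upstream of the members differed little. Of 21 listed RAS, RAF, MEK and ERK pathway genes 13 were matched, all of them measured. Of these 9 were lower, 1 higher and 3 equal, with 0 past 1.2-fold, where 47% of measured genes were lower, 25.7% higher and 27.3% equal. Their median of -0.023 was of a size that scaling could turn: it was -0.0052 under equal medians, 0.0028 under quantile and -0.00077 under loess scaling. The largest differences were those of the RAS exchange factor Sos1 (-0.12) and the docking protein gene Gab1 (-0.10). Among 9 SRF partners and CREB family genes, Srf stood at 9.99 in knockout and 10.07 in wild type (-0.08), and its coactivator Mrtfa was higher by 0.11. The ternary complex factor genes Elk1, Elk3 and Elk4 differed by -0.04, -0.016 and -0.07.

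SRF also controls genes of the actin cytoskeleton, and some of these were lower in knockout. Of 10 measured genes 2 were at least 1.2-fold lower in knockout and 0 higher: Cnn1, which encodes calponin of smooth muscle, at 10.03 in knockout and 10.34 in wild type (-0.31), and Tpm2, a tropomyosin gene, at 9.39 and 9.68 (-0.30). Of all measured genes, 1.53% were at least 1.2-fold lower. The list's median was -0.15, and 7 of 10 were lower by any amount, against 47% of measured genes. Several are smooth muscle genes: Acta2, Actg2, Cnn1 and Tagln are also among the smooth muscle markers, so the counts of the 2 lists overlap. In the list of 7 smooth muscle markers all 7 were lower by any amount, against the same 47%, with Myocd, the coactivator of SRF in muscle, at 10.06 in knockout and 10.45 in wild type (-0.39), and with a summed level of 13.92 in knockout and 14.06 in wild type, and the part of smooth muscle content in this difference was not tested.

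ERK is also restrained by phosphatases and other feedback genes. Among 10 measured MAP kinase phosphatases, Dusp1 included, 5 were higher, 4 lower and 1 equal, with a median of 0.0023. Dusp9 alone passed 1.2-fold, at 8.83 in knockout and 9.13 in wild type (-0.31). Of 17 measured delayed FGF response genes 0 passed 1.2-fold, with 7 higher and 8 lower by any amount. At 1.2-fold, 1.39% of measured genes were higher and 1.53% lower. Etv5 itself (-0.23) and Flrt3, a membrane protein gene of the FGF synexpression group (0.22), had the largest differences among the measured genes. Of the dimmer genes on that list, Etv4 (-0.63) and Lif, a cytokine gene (0.33), differed by more.

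Genes that work with Myc were spread around 0. Mycn, the family member known for expression in distal lung epithelium, read 9.54 in knockout and 9.45 in wild type (0.09), and Mycl was higher by 0.10. The MAX partners Mxd1 and Mxd4, which oppose MYC at its sites, were higher by 0.15 and 0.14, and Max was equal on both arrays. Of 11 measured family and partner genes 5 were higher, 3 lower and 3 equal. Of 15 measured MYC targets 6 were higher, 5 lower and 4 equal, with a median of 0.00 and 0 past 1.2-fold. Npm1, a nucleolar protein gene (-0.13), and Eif4e, which encodes the cap-binding translation factor (-0.09 on the brightest of 3 probe sets), had the largest differences among them.

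**Figure D4:**
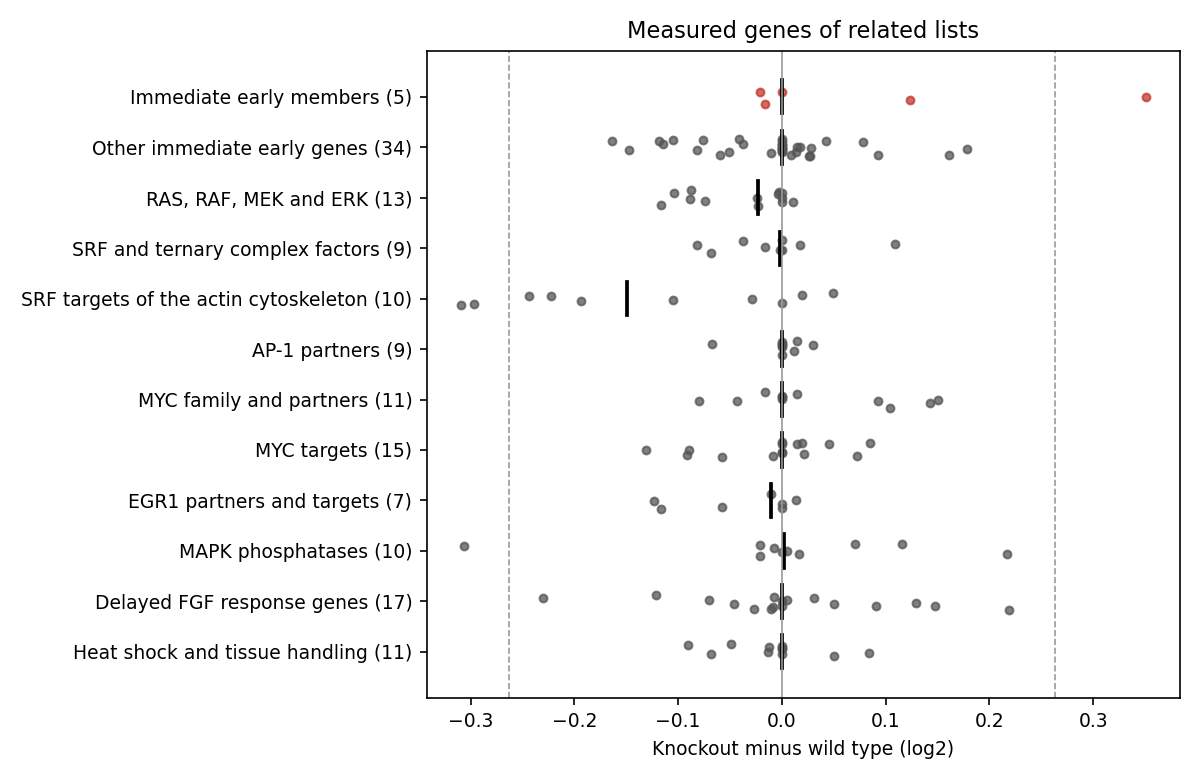
Knockout minus wild type difference (log2) of each measured gene in the member list (red) and 11 related lists (grey), with the number of measured genes in brackets; black bars are list medians and dashed lines mark 1.2-fold. Egr1 is the only point beyond the upper line, and Cnn1, Tpm2 and Dusp9 lie beyond the lower one.

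Markers of handling stress and of other cells were read beside Egr1, Jun and Ier3. Of 11 measured heat shock and stress genes 0 passed 1.2-fold, the median was 0.00, and the summed level was 14.99 in knockout and 15.00 in wild type. Hspe1, a mitochondrial chaperonin gene (-0.09), and the stress factor gene Ddit3 (0.08) had the largest differences, and Hspa1a, the inducible heat shock gene, was equal on both arrays at 7.78. Of 10 epithelial markers 8 were higher in knockout and 2 lower (summed level 14.04 in knockout, 14.01 in wild type). The keratin genes Krt18 (0.47) and Krt8 (0.33) were past 1.2-fold upward, and the surfactant gene Sftpc (-1.12) and the distal progenitor factor Sox9 (-0.32) downward. Of all measured genes 25.7% were higher and 47% lower by any amount, and 1.39% were higher and 1.53% lower by at least 1.2-fold. Of 8 mesenchyme markers 7 were lower by any amount, against 47% of measured genes (summed level 14.23 in knockout, 14.37 in wild type). The factor gene Foxf1 (-0.40) and the ligand gene Wnt2 (-0.31) were past 1.2-fold, and Foxf1, the brightest of these markers, weighs most in the sum. The rest of the lower markers differed less: Pdgfra (-0.11), Col1a1 (-0.07), Tbx5 (-0.04), Col3a1 (-0.03) and Tbx4 (-0.02). The 1 higher marker was Fgf10, the ligand upstream of ERK in the epithelium, at 10.24 in knockout and 9.84 in wild type (0.40). The same 47% applies to the next 3 lists. Endothelial markers were lower in 5 of 7 (13.62 in knockout, 13.65 in wild type). Measured leukocyte markers were lower in 5 of 6 (11.14 in knockout, 11.24 in wild type) and measured erythroid markers in 3 of 3 (11.99 in knockout, 12.22 in wild type). Of 5 measured mesothelial markers 3 were higher, against 25.7% of measured genes (11.64 in knockout, 11.53 in wild type). Krt19 (0.45) alone passed 1.2-fold. Bnc1 (0.20) and Lrrn4 (0.06) were higher by less, Upk3b was lower (-0.09) and Wt1 equal. Few markers of neurons, heart muscle and cartilage were bright enough to count, 1 of 4, 2 of 5 and 3 of 5 matched genes. The part of these shifts in the values of Egr1, Jun and Ier3 was not tested.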

How the data were processed

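Per the labels' protocols, biotin-labelled lung RNA was read on Affymetrix arrays. The deposited table gives 1 value per probe set and array (35557 probe sets). These deposited values were read as log2 from their range (2.69 to 14.4 in knockout, 2.72 to 14.4 in wild type), and the log base, the summary method and the normalization are not given in the sources used here. The platform annotation gave the gene names (21789 with 1 symbol, 1621 with several, 12147 with none). Each gene took its brightest probe set. Of 245 listed genes 228 were matched, 7 of them through newer symbols. The members, lists and motifs were chosen with earlier results of these data known, and TGACATCA was added after the Jun window was read. Named genes are the members, the targeted and sex-linked genes and, per list, measured genes past 1.2-fold (at most 6) or else the 2 largest, with marker lists given by counts where none passed; other genes are named by role and were chosen after their values were seen. Log2 sums are of unlogged values over measured genes. Promoters came from RefSeq (GRCm38.p6) and matched 7 of 10 members. Steps were tested on simulated data. Python 3.11.15, numpy 2.4.6, pandas 2.3.3, statsmodels 0.14.6 and matplotlib 3.10.9 were used.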

Additional observations from a re-analysis of the deposited data

How the results depend on the processing

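Alternatives were equal medians, quantile and loess scaling (span 0.3), the mean over probe sets, no level filter, a level floor (25th percentile), a stricter filter (75th percentile) and thresholds of 1.1-fold, 1.5-fold and 2-fold. The count of 1 member at least 1.2-fold higher (Egr1) became 0 at the 75th percentile filter, which Egr1 does not reach, and 0 at 1.5-fold and 2-fold. The count of 0 members lower became 1 without the level filter, which adds Ier3. Of the other 23 values for the counts and the median of the members, all stayed within 1.5 times or 0.04, the median gap between the differences of 2 probe sets of a gene. The members' median lay between -0.016 and 0.017. Scaling to equal medians shifted measured genes by 0.017, and the differences of Dusp1 (-0.021 to 0.0061) and Myc (-0.016 to 0.0058) changed sign between settings. Ier3 and Fosb rest on dim values. No array could be left out. No paired analysis was possible because each group had 1 array.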
